A study of Mus musculus with 4 samples.

Results

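Cerebellar granule cells of mice at postnatal day 6 were compared with Sox1 neural stem cells, gene by gene, on the 2 of the study's 4 arrays that hold them. All 18193 genes that the array names by a probe set with 1 gene symbol entered the comparison, and where several probe sets name a gene, the brightest by mean log2 signal over the 4 arrays stood for it. The granule cells came from postnatal mice, while the Sox1 cells were isolated by a sort. The labels give no strain or sex for either, and they do not say whether the Sox1 cells came from cultured ES cells or from an embryo, or whether RNA was pooled. A growth protocol attached to every sample describes HB9 reporter ES cells exposed to Sonic hedgehog, retinoic acid and purmorphamine from day 5 to day 9, with a sort on day 8, and it does not say that the Sox1 cells shared that exposure. The other 2 arrays, of ES cells and of cells labelled HB9-GFP+, enter through the choice of probe set and the low level, and the second went against its label in carrying Pou5f1, a pluripotency gene, at 11188.0. Each kind of cell was measured on 1 array. The differences below are therefore differences between these arrays, with no replicate error and no test.

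Granule cells are the small glutamatergic neurons of the cerebellar cortex. In the first postnatal weeks their progenitors divide in the external granular layer under Sonic hedgehog from Purkinje cells, leave the cell cycle, extend parallel fibres and migrate inward along Bergmann glia. Sox1 marks the early neuroepithelium, whose progenitors are kept undifferentiated by SoxB1 factors and Notch signalling and carry regional codes of homeodomain proteins. The pair of arrays thus sets a postnatal tissue rich in young neurons and their dividing precursors beside an early neural progenitor.

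Signals are linear intensities scaled by the submitters to a common average. The low level was 78.8, the typical signal of a median probe set, and detection required 157.5, which is 1 log2 unit more. Calling a gene higher or lower took detection on the brighter array and a gap of 4-fold or more, with signals under the low level raised to it. "At least" marks folds whose dimmer signal was under the low level, since these are bounds. Genes whose dimmer signal was above the low level but not detected are given by their signals alone, with no fold. Signals of different genes come from different probes, so only the 2 arrays are compared, gene by gene.

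The markers of granule cells were brighter on the granule array and those of neural stem cells mostly on the Sox1 array. Of 8 granule markers, 7 were detected on the granule array and 4 on the Sox1 array, with summed signals of 56866 and 12725. By the 4-fold rule 5 of the 8 were called higher and 0 lower. Zic1, a zinc finger factor of the granule lineage, had a signal of 17613.9 against 8468.3, so it was bright on both. Neurod1, the bHLH factor of differentiating granule cells, was at 16889.0 against 562.8, a 30.01-fold difference. Atoh1, the factor that specifies granule progenitors, was at 623.3 against 47.0, which is at least 7.91-fold. Gabra6, the GABA receptor subunit of mature granule cells, was detected on neither array, at 79.9 and 14.8. Of 9 neural stem cell markers, 9 were detected in Sox1 cells and 7 in granule cells, with summed signals of 53928 and 31368. Fabp7 alone gave 21466.0 and 17695.0 of these sums. Only 3 of the 9 were called lower on the granule array, and 0 higher. Pax6 (6180.5 on the granule array and 2996.7 on the Sox1 array) counts among both the granule and the stem cell markers. Sox1 itself was at 437.7 on the granule array and 2262.1 on the Sox1 array, and its other probe set was dark on both. The 4 ES cell markers were all detected on the Sox1 array, with a summed signal of 5360 against 117.2 on the granule array, where 0 were detected.

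Markers of other cerebellar cells were also present on the granule array. All 7 markers of astrocytes and Bergmann glia were detected there against 3 on the Sox1 array, 6 against 2 of 6 oligodendrocyte markers, 3 against 0 of 3 Purkinje markers and 5 against 0 of 6 microglial markers. The markers of fibroblasts were detected for 4 of 4 genes on the granule array and 1 on the Sox1 array. No marker of endothelium or red blood cells was detected on either array, with summed endothelial signals of 229.7 and 132.8. The neuronal differences below therefore come from an array that also carries glial, Purkinje and microglial RNA, and their part in those differences was not tested. In bulk RNA, fewer cells of a type and less RNA per cell cannot be told apart.

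**Figure D1:**
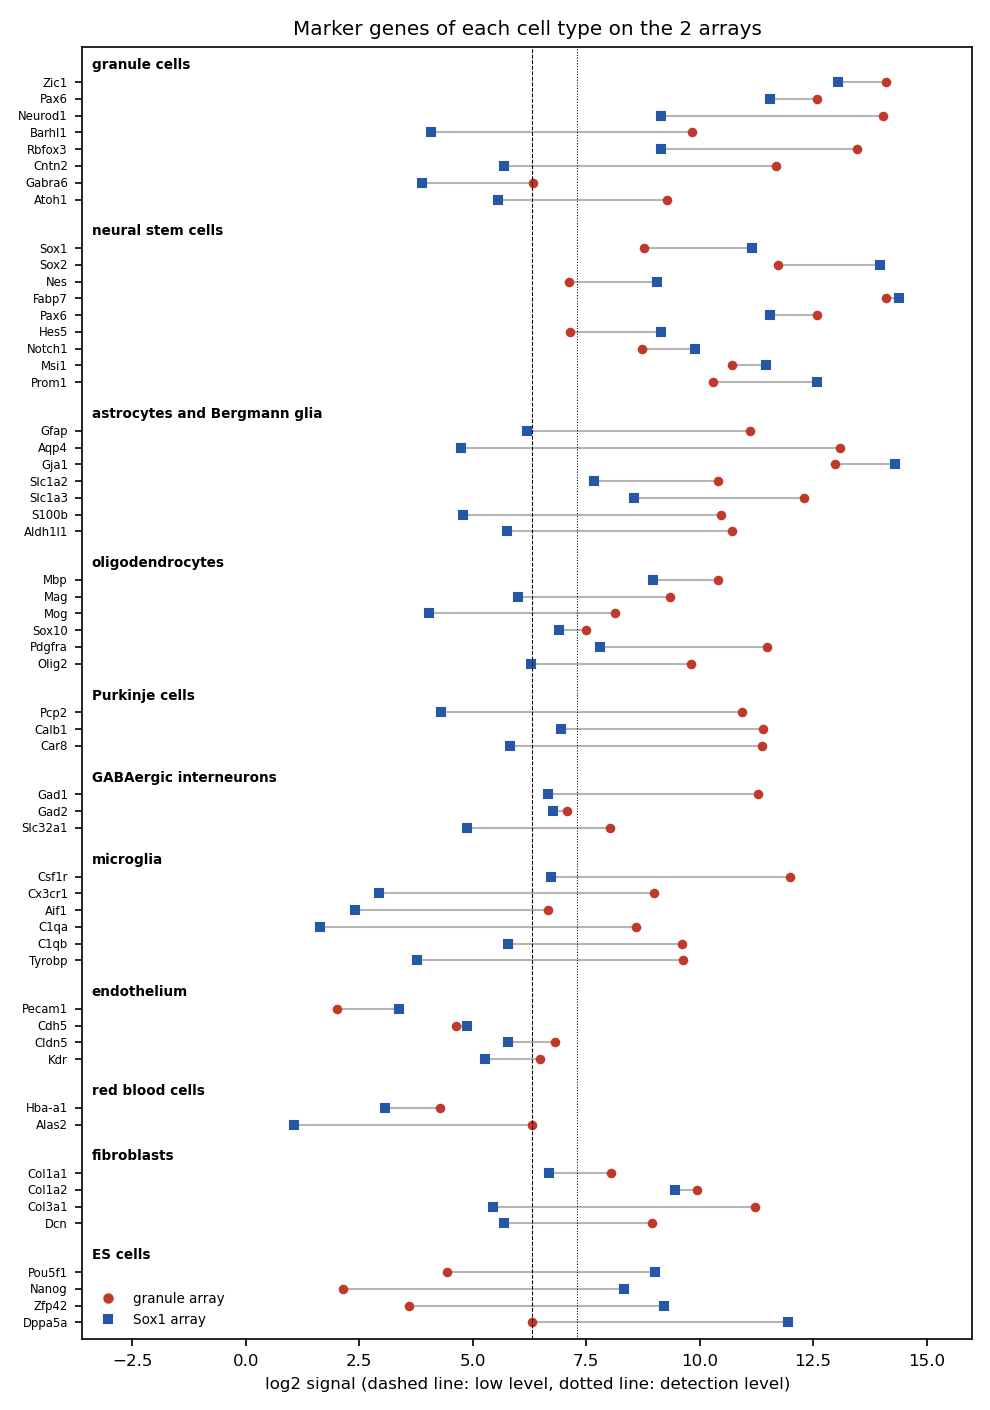
Log2 signal (horizontal axis) of each marker gene (rows, grouped by cell type) on the granule array (circles) and the Sox1 array (squares), with the low level dashed and the detection level dotted. Microglial and Purkinje markers lie below detection on the Sox1 array, ES cell markers lie below detection on the granule array, and endothelial markers lie below it on both.

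Genes higher on the granule array outnumbered those lower on it. Of the 18193 genes, 665 were at least 4-fold higher (3.66%) and 380 at least 4-fold lower (2.09%), so that 63.6% of the differences were towards the granule array. Over the 10405 genes detected on either array the shares were 6.39% and 3.65%. The median difference over these detected genes was -0.07 on the log2 scale. Differences of at least 16-fold numbered 91 towards the granule array and 55 towards the Sox1 array. The split depends on the scaling, since 56.0% of differences were towards the granule array after quantile normalisation. The share was 85.4% after centring on 12 reference genes. This centring adds 0.68 to log2 differences in which neither signal is held at the low level, and less to others.

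The log2 differences of 18 hybridisation control probe sets had an SD of 0.07, and the pooled SD among detected probe sets of a gene was 0.62 over 4436 genes; neither contains biological variation. Among the genes called higher, 292 had another detected probe set, and in 285 of them all the others pointed the same way, in 123 by more than 4-fold. Among those called lower, 129 of 136 did so, 66 of them by more than 4-fold. Averaging the probe sets of each gene kept 389 of the 665 higher calls and 243 of the 380 lower ones. In no called gene did another probe set pass 4-fold in the opposite direction. The ratio of 3' to 5' control probe sets for actin was 2.29 on the granule array and 5.08 on the Sox1 array, and that for Gapdh was 2.70 and 3.68. The part of this gap in RNA quality in the differences was not tested. At the edge of the size rule, Apc2 at 674.0 and 168.4 was counted as higher, and Stmn2, a neuronal stathmin, at 9839.9 and 2466.9 fell just outside.

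**Figure D2:**
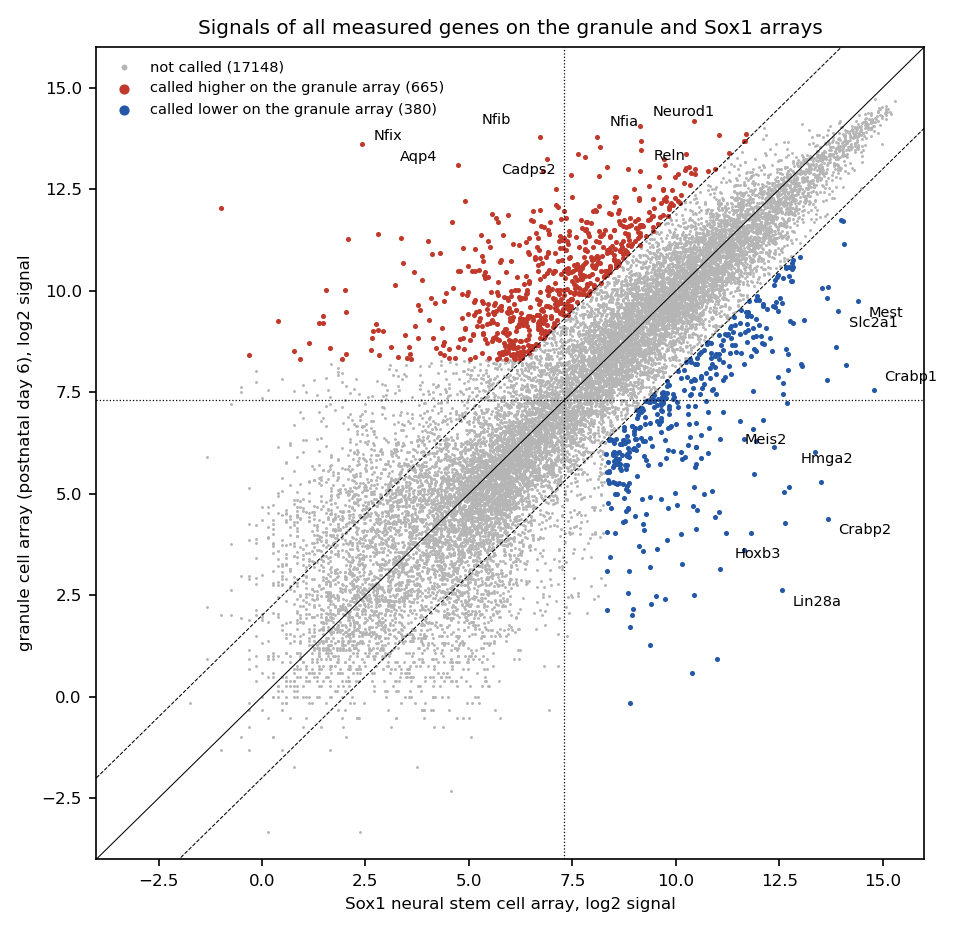
Log2 signal of each of 18193 genes on the Sox1 array (horizontal) and the granule array (vertical), with the 665 genes called higher in red and the 380 called lower in blue. Solid and dashed diagonals mark equal signals and 4-fold differences, and dotted lines the detection level. The nuclear factor I genes stand at the upper left and Crabp1, Crabp2, Hmga2 and Lin28a at the lower right.

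Nuclear factor I genes led the granule side. This family of DNA-binding factors is known to come on late in neural progenitors and to promote both glial development and granule cell maturation. Nfix was at 12514.0 on the granule array and 5.3 on the Sox1 array, at least 158.9-fold higher. Nfib was at 14138.2 against 104.7, and Nfia was 51.5-fold higher at 14141.8 against 274.4. Nfic was at 1929.0 against 87.3, so all 4 members of the family were called higher. The probe sets of these genes differed in part. Of the 7 probe sets of Nfib, 6 were called higher, as were 4 of 5 for Nfix and 4 of 6 for Nfia, while 1 of 5 was called for Nfic.

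Among 26 nuclear factor I and other late neural factors, 13 were called higher and 0 lower. Their log2 differences had a median of 2.02, against 0.00 over all genes. The zinc finger family Myt1, Myt1l and St18, which acts in neuronal and oligodendrocyte differentiation, was higher in all 3 members. St18 was at 7214.3 against 283.3, a 25.5-fold difference, and Myt1l was at 1428.9 against 33.7, at least 18.1-fold. Thra, the thyroid hormone receptor alpha gene, was 4.62-fold higher at 2593.2 against 561.6. Klf9, a thyroid hormone-induced zinc finger factor, was 4.54-fold higher at 7933.9 against 1747.4. Thrb was below detection on both arrays, at 53.9 and 65.5.

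Transcription factors of the granule lineage differed unequally. Of 33 measured lineage factors and markers, 16 were called higher and 1 lower, with a median of 1.81. Neurod1 and its relative Neurod2 (993.9 against 50.9), Barhl1 (906.6 against 17.0), Nhlh2 (8171.4 against 1406.9) and Nhlh1 (3102.7 against 587.3) were among those higher. Zic4 was at 1212.6 against 87.1 and Mab21l1, a neighbour of the neuronal gene Nbea, at 4012.0 against 158.2, a 25.4-fold difference. Pax6, a homeodomain factor of both granule precursors and early neural progenitors, was 2.06-fold higher at 6180.5 against 2996.7 and was not called, nor was Zic1 at 2.08-fold. The exception was Meis2, a TALE homeodomain factor, at 65.2 against 10527.4 and so at least 133.7-fold lower, in which all 4 probe sets were called lower. Its relative Meis1 was at 3009.5 against 4097.7, a 1.36-fold difference. Rbfox3, which encodes the neuronal antigen NeuN, was 19.9-fold higher at 11269.7 against 566.3.

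Genes of reelin signalling and migration were higher in 6 of 24 members and lower in 0. Reln, the secreted glycoprotein that granule cells make for Purkinje cell positioning, was 23.1-fold higher at 13182.7 against 569.7. Its intracellular adaptor Dab1 was at 450.5 against 819.1, and its receptor Vldlr at 1979.4 against 665.0, and neither was called. Dcx, the microtubule-binding protein of migrating neurons, was 11.5-fold higher at 9634.5 against 836.8, and its relative Dclk1 7.01-fold at 4933.8 against 703.5. The chemokine Cxcl12, which holds granule precursors near the meninges, was 10.7-fold higher at 2172.3 against 202.9. Its receptor Cxcr4 was at 570.9 against 2198.6, just inside the range left uncalled.

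The cytoskeleton of neurons was higher in 10 of 36 members, with a median of 1.13. Among its microtubule-associated proteins were Map2 at 7448.4 against 1068.3 (6.97-fold) and Mapt, which encodes tau, at 2346.0 against 83.0. The growth-associated protein Gap43 was 10.1-fold higher at 2857.4 against 282.6, and the motor subunit Kif5a 8.98-fold at 2694.7 against 300.2. Tubb3, a tubulin used as a neuronal marker, was 4.11-fold higher at 3657.1 against 890.2. The alpha-tubulin Tuba1a was bright on both arrays, at 21429.2 and 30085.9, and Tubb2b was nearly equal at 13150.9 and 12988.0.

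Of 35 measured synaptic vesicle and exocytosis genes, 21 were called higher and 0 lower, with a median of 2.38, and 32 were detected on the granule array against 18 on the Sox1 array. Cadps2, a dense-core vesicle priming factor, was 45.0-fold higher at 10005.0 against 222.5, and its relative Cadps 7.76-fold at 2618.0 against 337.2. Snap25, a membrane fusion protein of the SNARE complex, was at 3079.7 against 106.2. Vesicle proteins followed, with Vamp2 7.38-fold higher at 1583.6 against 214.7 and Syt1, the calcium sensor of release, 7.07-fold at 1501.3 against 212.3. The vesicular glutamate transporter Slc17a6 was at 1972.2 against 85.8. Slc17a7, the transporter of mature granule cells, was below detection on both, at 63.2 and 45.9. The count of higher members ranged from 12 to 26 over the alternative settings that kept the 4-fold rule, and the ranges given for other lists are over the same settings.

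Receptors and postsynaptic proteins were higher less uniformly. Glutamate receptor genes were higher in 7 of 22 members (5 to 10 over the alternative settings) and lower in 1. Gria4, an AMPA receptor subunit, was 13.5-fold higher at 2251.2 against 167.1, and Cacng2, the AMPA receptor auxiliary protein stargazin, was at 1314.3 against 112.8. Of the NMDA receptor subunits, Grin2b was at 350.3 against 53.2, at least 4.45-fold higher. Grin2a and Grin2c, which replace it as granule cells mature, were below detection on both arrays. The kainate receptor subunit Grik3 was the lower member, at 478.8 against 2399.8, while Grik2 was at 1642.3 against 108.6. Postsynaptic scaffold and adhesion genes were higher in 5 of 25 members and lower in 1, Cntnap2, at 154.1 against 1038.6. Cbln1, the secreted synaptic organiser of parallel fibres, was 5.92-fold higher at 5099.4 against 861.6. GABA and glycine receptor genes were higher in 3 of 15 members (2 to 6 over the alternative settings) and lower in 1. Glrb was 4.81-fold higher at 1753.7 against 364.3, and Glra1 was the lower member, at 3.3 against 473.8.

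Potassium channel genes were higher in 10 of 25 members (4 to 12 over the alternative settings) and lower in 1. Sodium and calcium channel genes were higher in 6 of 21 (2 to 9) and lower in 0. The A-type channel gene Kcnd2 was at 2141.9 against 45.9, at least 27.2-fold higher, and Kcnd3 was 16.02-fold higher at 2526.7 against 157.7. Scn8a, the sodium channel of axon initial segments, was 7.97-fold higher at 1409.3 against 176.9. The calcium channel subunit Cacna2d1 was 13.9-fold higher at 2967.8 against 213.0. Kcnh2 was lower, at 65.7 against 361.4. Kcnj10, a channel gene of glia, was at 809.6 against 157.5, and the part of glial RNA in this difference was not tested.

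Surface proteins of the axon divided by family. Immunoglobulin-family adhesion genes were higher in 12 of 23 members and lower in 0, with a median of 2.09. Among these were L1cam, 12.99-fold at 2950.3 against 227.2, Nfasc, 10.5-fold at 2343.4 against 223.1, and Cntn1 at 3469.7 against 150.7. Cntn2, the axonal glycoprotein of newly postmitotic granule cells, was at least 42.0-fold higher at 3303.6 against 51.7. Cadherins and protocadherins gave 3 higher and 4 lower of 33. The epithelial cadherin Cdh1 was at 894.7 on the Sox1 array and undetected on the granule array, and the paraxial protocadherin Pcdh8 was 14.1-fold lower at 909.0 against 12809.8. Axon guidance genes gave 8 higher (3 to 9 over the alternative settings) and 4 lower (3 to 5) of 37. The netrin receptors Dcc (7475.4 against 1401.5) and Unc5c (3783.7 against 345.4) were higher, while the ephrin system supplied 3 of the lower genes, with Epha4 at 291.3 against 3198.8, Epha7 at 908.8 against 5890.4 and Efnb2 at 1487.7 against 7178.5. The axon guidance median of -0.08 became 0.14 after centring on reference genes.

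Regulators of neuronal RNA were higher in 6 of 30 members and lower in 0. Srrm4, the splicing factor that drives neuronal microexons, was 7.58-fold higher at 1541.2 against 203.4. Elavl3 was 6.89-fold higher at 3054.2 against 443.4, and Celf4 7.48-fold at 3548.9 against 474.3. Ptbp1, the splicing repressor of progenitors, was at 2803.5 against 4177.4, and Ptbp2 at 5668.4 against 6061.4, so neither was called. Rest, the repressor of neuronal genes in other cells, was 8.83-fold lower at 175.0 against 1546.0, and a second of its 4 probe sets was also called lower, at 122.5 against 775.6.

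**Figure D3:**
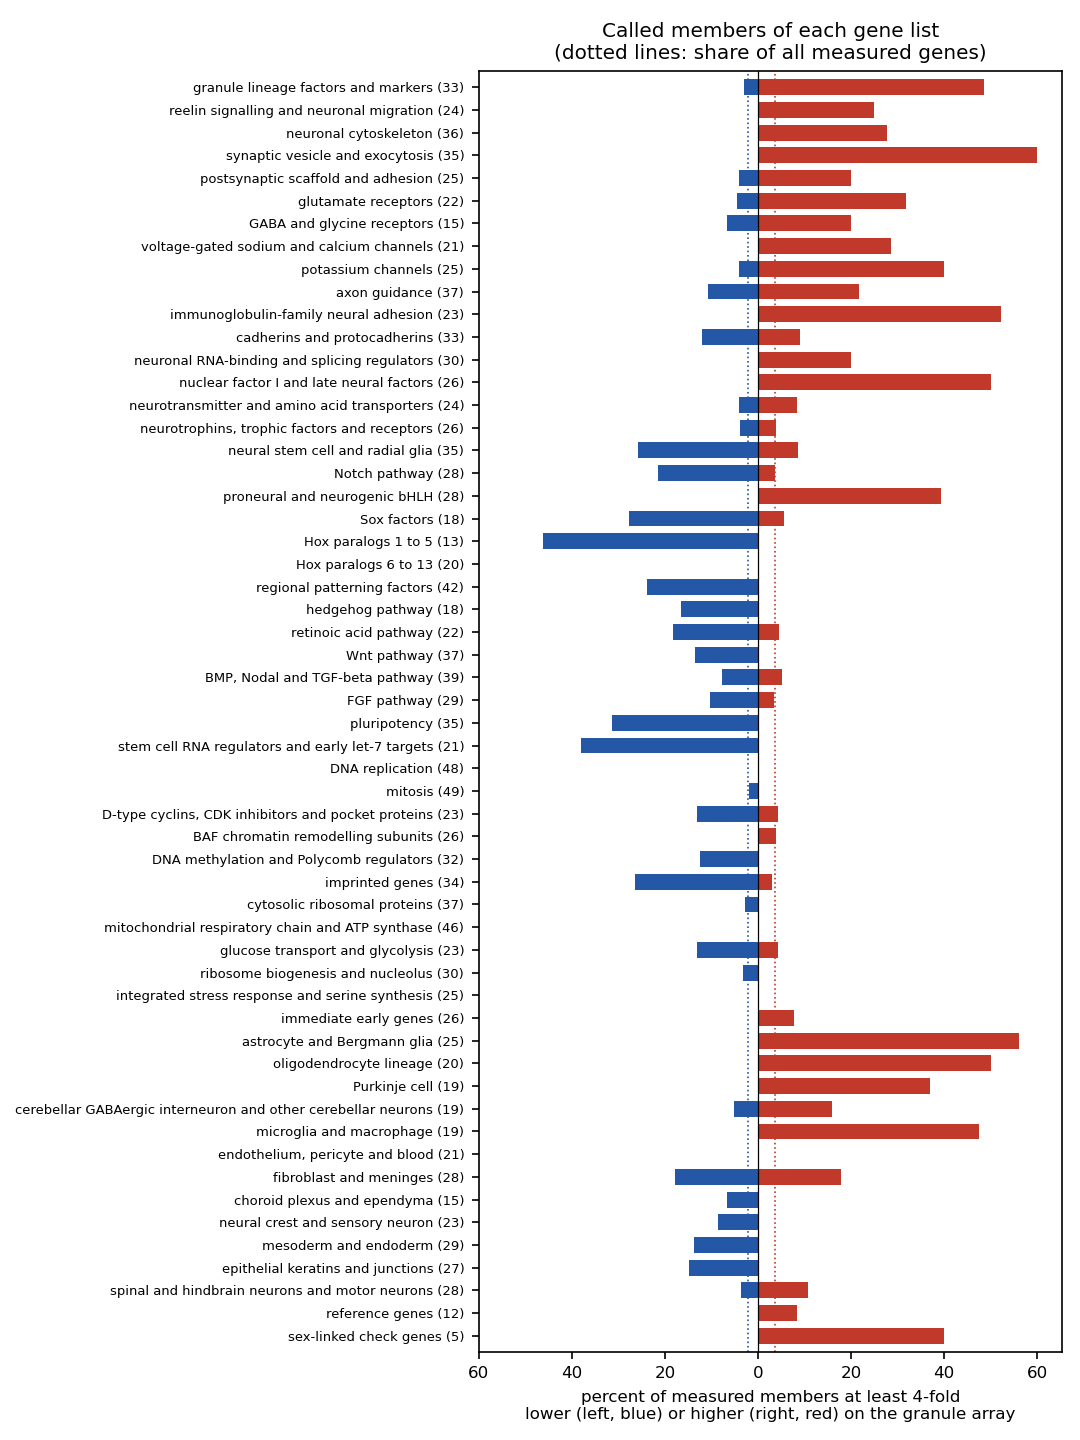
Percent of the measured members of each gene list (rows, number of members in parentheses) called at least 4-fold higher (right) or lower (left) on the granule array, with dotted lines at the shares over all genes, 3.66 and 2.09 percent. Neuronal and glial lists extend to the right and Hox, stem cell, pluripotency and imprinted lists to the left, while the replication, mitochondrial, stress, posterior Hox and endothelial lists have no called member.

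Progenitor genes were lower on the granule array in part. Of 35 neural stem cell and radial glia genes, 9 were called lower (4 to 11 over the alternative settings) and 3 higher, with a median of -1.25. The SoxB1 factors, which keep neural progenitors undifferentiated, were lower together: Sox2 was 4.74-fold lower at 3410.1 against 16172.6, Sox1 5.17-fold at 437.7 against 2262.1, and Sox3 stood at 129.9 against 2254.6. Sox21 was 11.3-fold lower at 609.4 against 6877.5. The SoxC factors Sox4 (18332.8 against 26730.9) and Sox11 (12513.3 against 9555.6), which act in young neurons, were bright on both. Prom1, the surface antigen CD133, was 4.87-fold lower at 1262.6 against 6146.8. The 3 higher members were Slc1a3, Ttyh1 and Tnc, which are also expressed by Bergmann glia and astrocytes. Fabp7, a radial glial lipid-binding protein, was bright on both at 17695.0 and 21466.0.

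Notch pathway genes were lower in 6 of 28 members and higher in 1. The ligands Jag1 (544.0 against 4664.5) and Dll1 (346.1 against 2109.0) were lower, as were the receptor Notch3 (406.7 against 2741.7) and the targets Nrarp (380.8 against 3817.7) and Hes1 (69.9 against 510.2). Hes5 stood at 142.2 against 564.7, just outside the rule. The higher member was Dner, a Notch-related ligand of Purkinje cells and neurons, 17.9-fold at 8232.6 against 459.0. Proneural and neurogenic bHLH genes were higher in 11 of 28 members and lower in 0. Besides granule factors these included Olig1 and Olig2 of the oligodendrocyte lineage, Ptf1a (525.3 against 88.0), which specifies cerebellar GABAergic neurons, and Neurod6 at 2535.0 against 10.3.

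Hox genes give the hindbrain and spinal cord their position along the axis, and the cerebellum arises in front of their domain. Of the 13 measured genes of Hox paralogs 1 to 5, 0 were detected in granule cells and 8 in Sox1 cells, and 6 were called lower. Hoxb3 was at 16.3 against 3626.3, at least 46.0-fold lower. Hoxb1 was at 23.5 against 2111.2, at least 26.8-fold lower. Hoxa2 was at 1.9 against 2051.6. None of the 20 genes of paralogs 6 to 13 was detected on either array. All Hox genes detected on the Sox1 array were therefore of paralogs 1 to 5.

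Other regional factors were lower in 10 of 42 members and higher in 0. Irx3, an Iroquois factor of the caudal neural plate, was 29.9-fold lower at 284.4 against 8508.8. Dbx1, of interneuron progenitors in the ventral cord and hindbrain, stood at 33.4 against 1871.1 and the floor plate factor Foxa2 at 4.9 against 670.3. Gbx2, of the anterior hindbrain, stood at 71.4 against 1424.3, and the forebrain factors Lhx2 at 72.9 against 1250.6 and Six6 at 0.9 against 472.4. Genes counted here as factors of forebrain, hindbrain and floor plate were thus detected on the same Sox1 array. Foxa2 is also a member of the mesoderm and endoderm list below. En2, a factor of the midbrain and cerebellum, was at 3003.4 against 1204.9, and Otx2 was nearly equal at 610.3 and 631.0.

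Genes of retinoic acid handling gave some of the widest gaps. Crabp1 and Crabp2 encode cellular retinoic acid-binding proteins. Crabp1 was at 188.9 on the granule array and 28152.5 on the Sox1 array, a 149.0-fold difference, and Crabp2 was at 20.6 against 12979.2, at least 164.8-fold. The degrading enzyme Cyp26a1 was at 25.1 against 460.6. Aldh1a1, an enzyme that makes retinoic acid, was the higher member, at 661.1 against 2.8. Of the nuclear receptors, Rxrb was nearly equal at 1034.5 against 951.1, while Rarb was below detection on both and shows no direction. Of 22 members, 4 were lower and 1 higher.

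Hedgehog genes were lower in 3 of 18 members (1 to 3 over the alternative settings) and higher in 0. These were Shh, the ligand, at 160.3 against 758.2, the co-receptor Cdon, undetected against 921.2, and the transcription factor Gli3 at 820.9 against 4394.7. The receptor and target Ptch1 was bright on both at 7626.0 and 12045.3. The target Gli1 (262.3 against 138.9, the latter below detection) and the transcription factor Gli2 (2780.9 against 2135.6) were not called. Wnt genes were lower in 5 of 37 (2 to 6 over the alternative settings) and higher in 0 (0 to 2). Among the lower was the secreted Frizzled-related protein Sfrp2, 37.9-fold at 393.5 against 14894.3. The nuclear factors Lef1 (60.1 against 1191.1) and Tcf7l1 (463.8 against 3745.3) were lower too. In the BMP, Nodal and TGF-beta list 3 of 39 were lower, the antagonists Fst (149.2 against 6542.3) and Lefty1 (14.6 against 884.4) and the ligand Nodal (60.3 against 468.9). The higher members of that list were Tgfb2 and Gdf10, the latter a Bergmann glial gene at 1796.3 against 105.8. FGF genes were lower in 3 of 29, among them Fgf15 at 16.2 against 1106.7, and higher in 1. Of all genes detected on either array, 6.39% were higher and 3.65% lower, so counts this small say little about the BMP or FGF list. After centring on reference genes the BMP, Nodal and TGF-beta list had 4 higher and 3 lower, with a median that moved from -0.02 to 0.16, and the FGF list had 2 higher and 2 lower.

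The RNA-binding programme of early embryonic cells separated the arrays. Lin28a blocks the maturation of let-7 microRNAs, and let-7 in turn represses Lin28a, Hmga2, Igf2bp1 and Trim71. Of 21 stem cell RNA regulators and early let-7 targets, 8 were called lower and 0 higher, with a median of -1.55. Lin28a was at 6.2 in granule cells and 6055.7 in Sox1 cells, at least 76.9-fold lower. Its relative Lin28b was at 17.7 against 204.1 and was not called. The chromatin protein Hmga2 was at 38.9 against 11709.6, at least 148.7-fold lower, in 3 of its 4 probe sets. Igf2bp1 was at 35.6 against 6769.9 and Igf2bp3 was 14.3-fold lower at 616.9 against 8809.8. Trim71, the ubiquitin ligase of the same circuit, was at 12.2 against 3190.2. On the ES array Lin28a was at 2006.4, Hmga2 at 1410.7 and Igf2bp1 at 2755.1, so all 3 were brighter on the Sox1 array than on the ES array.

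The arrays do not measure mature microRNAs, but probe sets for their host transcripts were present. Mir9-3hg, the host of miR-9, was at 401.7 on the granule array and 97.6 on the Sox1 array and was called higher. Mir99ahg, which hosts miR-99a, let-7c and miR-125b, was at 303.6 and 238.5, a 1.27-fold difference that was not called. Mature levels were not measured. The mature sequences of these 4 are shown because their host transcripts were measured, and of them let-7c belongs to the family that Lin28a acts on. They are from RefSeq on GRCm38.p6 and written 5' to 3', with the seed (bases 2 to 8) in capitals. No 2 of the 4 shared a seed.
let-7c-5p: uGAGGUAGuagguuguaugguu
miR-125b-5p: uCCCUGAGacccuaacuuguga
miR-99a-5p: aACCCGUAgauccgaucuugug
miR-9-5p: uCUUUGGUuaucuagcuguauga

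Pluripotency genes were lower in 11 of 35 members (5 to 16 over the alternative settings) and higher in 0. Pou5f1, which maintains pluripotency, was at 21.7 in granule cells, 514.3 in Sox1 cells and 9255.5 in ES cells. Nanog followed the same order at 4.4, 324.3 and 4685.5. Sall4, a zinc finger factor of pluripotent and early progenitor cells, was at 19.5 in granule cells, 6334.6 in Sox1 cells and 6565.2 in ES cells, so the latter pair was close. Epithelial keratin and junction genes were lower in 4 of 27 members, with the plakophilin Pkp2 at 17.4 against 1439.6 and Krt8 at 68.1 against 500.6. The mesoderm and endoderm list gave 4 lower of 29. These were Foxa2, given above, Ttr at 141.5 against 1062.6, Afp at 67.6 against 528.0 and the laminin gene Lama1 at 78.0 against 613.2. Whether these signals on the Sox1 array come from other cells in the sort was not tested.

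Imprinted genes, which are expressed from 1 parental copy and often act in fetal growth, were lower in 9 of 34 members (3 to 10 over the alternative settings) and higher in 1. Mest was 25.1-fold lower at 863.1 against 21649.3, and Grb10, an adaptor that restrains growth factor signalling, 12.02-fold at 1093.9 against 13151.4. The Dlk1 and Meg3 neighbours were both lower, at 29.1 against 802.7 and 662.9 against 3362.8. The cell cycle inhibitor Cdkn1c was 5.44-fold lower at 401.4 against 2184.2. Ndn (11368.3 against 13855.4) and Peg3 (5135.4 against 4819.8) were bright on both, and Usp29 was the higher member at 403.0 against 20.6. Magel2, Mkrn3 and Peg12, which lie next to each other on chromosome 7, were all called lower.

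Of 48 DNA replication genes, 46 were detected on the granule array and 47 on the Sox1 array. None was called in either direction by the 4-fold rule, while by a 2-fold rule 18 were lower and 0 higher. The median was -0.84, or -0.17 after centring on reference genes. The replicative helicase subunits Mcm7 (11789.4 against 21553.1) and Mcm5 (6965.5 against 13036.9) and the sliding clamp Pcna (14266.9 against 23902.5) were bright on both. Of 49 mitotic genes, 1 was called lower and 0 higher, with a median of -0.31 that became 0.36 after centring on reference genes. The called gene was Pttg1, which encodes securin, 4.93-fold lower at 3384.7 against 16679.5. Some mitotic genes ran the other way, with Mki67, the proliferation antigen Ki-67, 2.90-fold higher at 8678.5 against 2991.5 and Cenpf at 3083.4 against 1334.8.

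Genes that control cell cycle entry were called in both directions. Ccnd2, the cyclin of granule precursors, was at 14613.2 against 11250.1, while Ccnd1 was 3.02-fold lower at 1901.8 against 5750.4, and neither was called. The inhibitor Cdkn2c was 6.05-fold higher at 1671.4 against 276.2, and Cdkn1b, which marks granule cell exit from the cycle, was 2.24-fold higher at 6222.3 against 2773.7. Cdkn1a was 6.16-fold lower at 635.3 against 3911.8, as was Cdkn1c above, so the inhibitors differed in opposite directions. Of 23 members, 1 was called higher and 3 lower, the third being E2f5 at 875.4 against 4091.6. After centring on reference genes 4 were called higher and 0 lower.

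The promoters of these cell cycle genes share motifs, and 4 are shown because their genes were bright on both arrays while many neighbours in function were not called. In the RefSeq windows of 250 bases before to 50 after the start on GRCm38.p6, 43 of 49 mitotic genes had an entry. Of these, 33 (76.7%) held the letters CCAAT and 31 (72.1%) held TTTGAA, the core of the cell cycle homology region, on either strand, against 37.9% and 18.1% of all 27025 promoters and 39.0% and 11.2% of the 8459 promoters of genes detected on either array. Of 40 DNA replication genes with an entry, 12 held an E2F site, searched as TTTGGCGC, TTTCCCGC, TTTGCCGC or TTTCGCGC on either strand, against 2.3% of all promoters and 4.4% of those of detected genes. These matches describe letters in a window and show no binding. The promoters printed belong to 2 mitotic members with both motifs and 2 replication members with an E2F match. They were taken by highest mean signal among promoters with these matches in the 250 bases before the start. Part of the genome was left out of this choice, so a brighter member with the same matches may exist. Each is the 250 bases before the start, 5' to 3' on the gene's strand, with the matches in capitals, and the 2 matches in Mcm5 overlap on opposite strands. Cdc20, the activator of the anaphase-promoting complex, was at 8063.2 against 11314.3, and Bub3, a spindle checkpoint protein, at 8266.5 against 11855.8.
Bub3 (chr7:131560120-131560369, plus strand): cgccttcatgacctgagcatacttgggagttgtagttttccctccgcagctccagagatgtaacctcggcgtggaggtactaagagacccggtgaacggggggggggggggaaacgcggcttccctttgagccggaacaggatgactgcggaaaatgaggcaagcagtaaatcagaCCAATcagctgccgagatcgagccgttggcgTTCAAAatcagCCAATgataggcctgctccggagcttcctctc
Cdc20 (chr4:118437344-118437593, minus strand): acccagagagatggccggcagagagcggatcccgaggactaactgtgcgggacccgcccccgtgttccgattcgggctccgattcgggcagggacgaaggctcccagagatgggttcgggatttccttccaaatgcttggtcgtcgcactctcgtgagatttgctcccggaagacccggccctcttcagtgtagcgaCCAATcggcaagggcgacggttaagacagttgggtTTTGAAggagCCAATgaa
Mcm7 (chr5:138171884-138172133, minus strand): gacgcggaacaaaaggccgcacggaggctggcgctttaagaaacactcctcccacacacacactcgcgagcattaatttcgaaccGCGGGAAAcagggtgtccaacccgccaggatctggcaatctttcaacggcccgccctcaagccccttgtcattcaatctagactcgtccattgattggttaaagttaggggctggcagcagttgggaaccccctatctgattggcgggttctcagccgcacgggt
Mcm5 (chr8:75109259-75109508, plus strand): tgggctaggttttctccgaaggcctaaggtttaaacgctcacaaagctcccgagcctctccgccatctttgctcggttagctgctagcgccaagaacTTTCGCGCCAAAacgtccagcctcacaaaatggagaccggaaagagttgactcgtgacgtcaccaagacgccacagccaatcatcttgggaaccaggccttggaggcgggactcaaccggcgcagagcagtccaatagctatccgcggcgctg

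The glucose transporter gene Slc2a1 was 21.4-fold lower at 726.0 against 15500.6, in all 3 of its probe sets. Slc2a3, listed as the later or neuronal form in the pairs below, was also lower, 11.1-fold at 1071.0 against 11865.0. Pdk1, which restrains pyruvate entry into mitochondria, was 5.75-fold lower at 347.4 against 1998.7. Aldoc, the aldolase of astrocytes and Purkinje cells, was 14.3-fold higher at 3287.7 against 230.6. Of 23 glucose transport and glycolysis genes, 3 were lower (1 to 3 over the alternative settings) and 1 higher (1 to 2). Nucleolar and ribosome biogenesis genes had a median of -0.93 with 1 of 30 called lower, Rrp1b. Cytosolic ribosomal proteins had a median of -0.66, which became 0.01 after centring on reference genes, with 1 of 37 called lower, Rpl14. Respiratory chain and ATP synthase genes had 0 of 46 called and a median of -0.24, which became 0.02 after quantile normalisation and 0.44 after centring on reference genes.

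**Figure D4:**
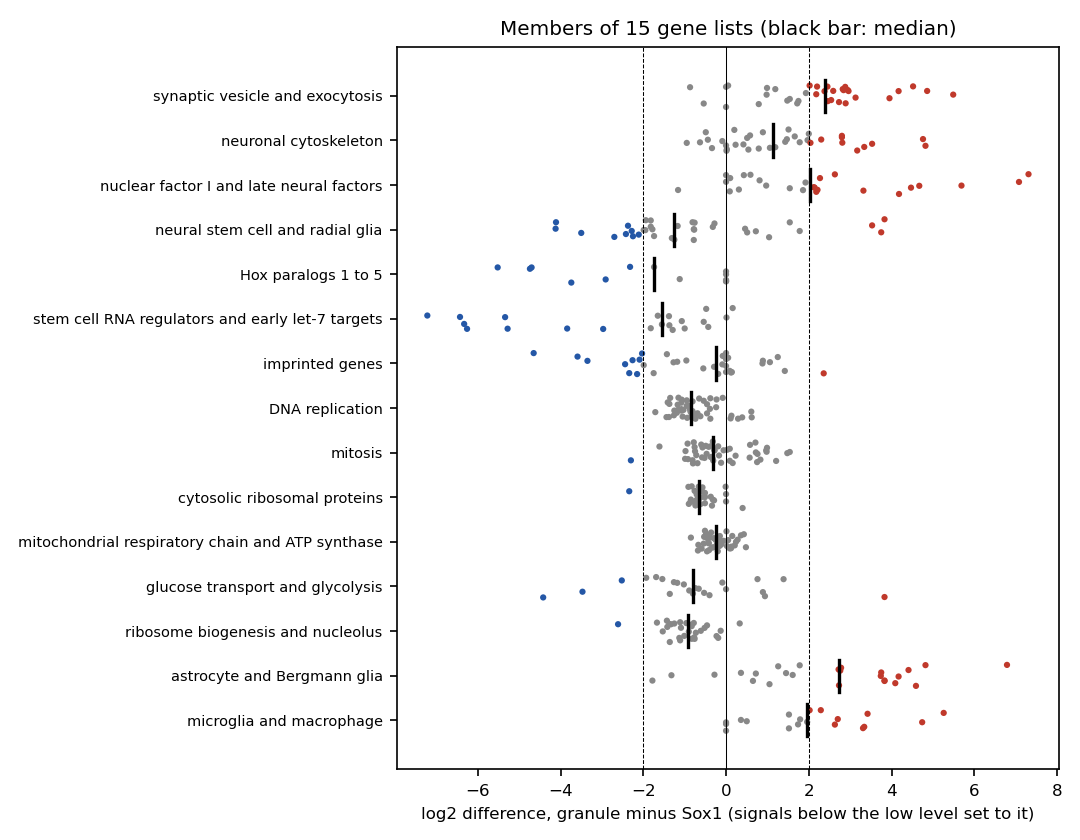
Log2 difference, granule minus Sox1, of each measured member (points) of 15 gene lists (rows), with the list median as a black bar, members called higher in red and lower in blue, and dashed lines at 4-fold. Replication, ribosomal and mitochondrial members form narrow bands slightly below 0, with medians of -0.84, -0.66 and -0.24, while the synaptic vesicle median lies at 2.38 and the stem cell RNA regulator median at -1.55.

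Of 32 DNA methylation and Polycomb regulators, 4 were called lower (1 to 4 over the alternative settings) and 0 higher (0 to 1). Their median of -0.10 became 0.38 after centring on reference genes. Of the de novo DNA methyltransferases, Dnmt3b was 14.1-fold lower at 363.4 against 5123.2. Dnmt3a was called lower by its chosen probe set, at 65.4 against 1124.4, but the brightest probe set over the 2 arrays gave a log2 difference of 0.48 the other way, at 1203.4 against 861.3, so its direction depends on the probe set. The maintenance enzyme Dnmt1 was at 3464.9 against 6697.9 and was not called. Of the Polycomb genes, Ezh2 (5697.9 against 7442.3) and Suz12 (2343.3 against 2168.1) were not called, while Cbx7 was at 54.8 against 329.9, at least 4.19-fold lower. Of 26 subunits of the BAF remodelling complex, 1 was called, Actl6b, the subunit that joins BAF in postmitotic neurons, at 534.4 against 58.1. Its progenitor counterpart Actl6a was at 5113.1 against 8930.1.

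Related genes that are known to be used at different stages of neural development were set side by side. In each of 28 measured pairs, the difference of the member listed as the later or neuronal form was compared with that of its counterpart. In 24 pairs the second member had the more positive difference, in 12 by at least 2 log2 units, and the median gap was 1.38. Some gaps among the 24 were below 0.62, the SD among probe sets of a gene. Examples are Ezh2 and Ezh1 (0.33) and Ptbp1 and Ptbp2 (0.48). The 24 include Phf10 and Dpf1, in which Dpf1 was below detection on both arrays, at 103.7 and 138.3. They also include pairs whose first member was lower while the second was nearly equal, as in Myh9 (-1.25) and Myh10 (-0.01). In no pair were both members called in opposite directions. The widest gap was in the SNAP proteins, with the ubiquitous Snap23 at 471.7 against 864.8 and the neuronal Snap25 called higher. Ap3b2, the neuronal subunit of the AP-3 adaptor, was at 816.3 against 44.2, while Ap3b1 was at 895.4 against 1126.0. The elongation factor Eef1a2 of neurons and muscle was at 502.6 against 127.9, while Eef1a1 was at 22100.8 against 30080.8. The pair that ran furthest the other way was Grin2b and Grin2a, in which the mature subunit was below detection. The pairs were chosen with earlier results known and their count is a description.

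**Figure D5:**
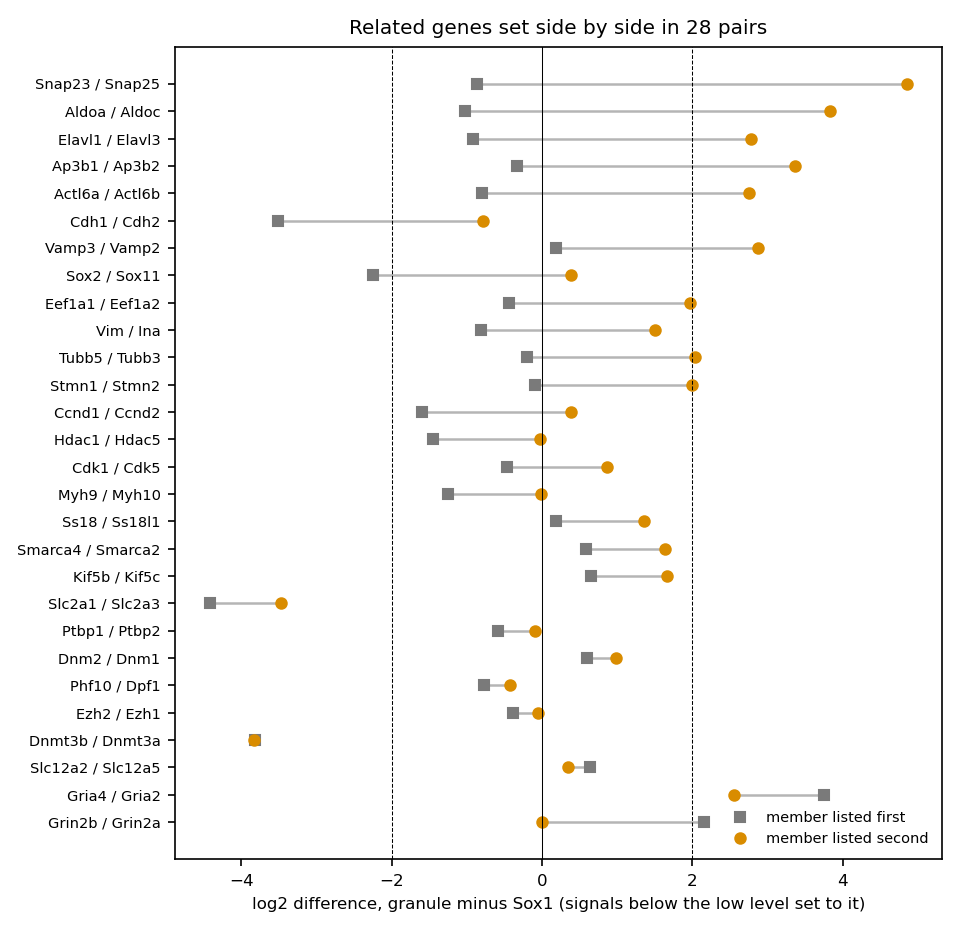
Log2 difference, granule minus Sox1, of the first (squares) and second (circles) member of 28 pairs of related genes, ordered by the gap between them, with dashed lines at 4-fold. The gap is positive in 24 pairs, widest in Snap23 and Snap25, and below -2 in Grin2b and Grin2a.

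Glial genes were higher on the granule array in large shares. Of 25 astrocyte and Bergmann glial genes, all 25 were detected there and 12 on the Sox1 array, and 14 were called higher and 0 lower, with a median of 2.73. Aqp4, the water channel of astrocyte endfeet, was at 8741.8 against 26.8, at least 111.0-fold higher. Slc1a3, the glutamate transporter of Bergmann glia, was 13.4-fold higher at 5027.4 against 374.0. Gja1, a gap junction protein shared by astrocytes and radial glia, was 2.50-fold lower at 8033.9 against 20117.7. Of 20 oligodendrocyte lineage genes, 10 were called higher and 0 lower. Gpr17, a receptor of committed precursors, was at 2693.6 against 7.0, Olig1 at 3541.0 against 50.3 and the myelin protein gene Cnp 10.2-fold higher at 8706.1 against 854.3.

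Purkinje, microglial and fibroblast genes were also present. Of 19 Purkinje cell genes, 7 were called higher and 0 lower, with Car8 at 2635.2 against 56.8, Calb1 at 2703.5 against 123.1 and Pcp2 at 1954.4 against 19.7. Several channels and Reln-pathway genes above are shared with Purkinje cells, and the share of each cell type was not tested. Of 19 microglial genes, 9 were called higher (5 to 14 over the alternative settings), with 14 detected in granule cells and 0 in Sox1 cells. Csf1r, the receptor for the survival factors of microglia, was at 4072.5 against 106.0, and the protease Ctss at 2108.0 against 28.8. The 3 complement genes C1qa, C1qb and C1qc, which are neighbours on chromosome 4, were all called higher. Fibroblast and meningeal genes gave 5 higher and 5 lower of 28, with the collagen gene Col3a1 at 2387.6 against 43.9 and fibronectin, Fn1, 5.26-fold lower at 508.4 against 2675.3. Of 26 immediate early genes, which respond to activity and to dissociation, 2 were higher and 0 lower, and Fos was nearly equal at 12716.3 and 12435.5.

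The genes called higher were longer than the rest. Their median annotated span was 49.3 kb (661 genes with a span), against 21.7 kb for those called lower (378) and 25.9 kb for all genes detected on either array. Genes over 100 kb made up 38.1% of the higher genes, 19.6% of the lower genes and 15.2% of the detected genes. These spans come from the RefSeq annotation of GRCm38.p6 and are given as a description. Some runs of at least 3 neighbouring genes were called the same way. On chromosome 11, Hoxb1, Hoxb2, Hoxb3 and Hoxb4 were all lower, and on chromosome 4 Nfib and 3 adjacent transcripts were all higher.

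Further large differences lay outside these groups. Among genes detected on both arrays, Ppp1r14c, a phosphatase inhibitor, was 53.1-fold higher at 10504.0 against 197.7, and the kinase genes Tnik and Prkcb were 28.4-fold and 26.1-fold higher, at 5096.2 against 179.2 and 8485.9 against 325.4. Sphkap was at 4721.8 against 29.9, at least 59.95-fold higher. On the lower side Mtm1, a phosphoinositide phosphatase, was 61.3-fold lower at 288.3 against 17659.2, Igdcc3 58.0-fold at 222.7 against 12906.1 and Tox2 35.2-fold at 174.1 against 6123.1. On the ES array Mtm1 was at 24706.6, Igdcc3 at 307.8 and Tox2 at 487.2, so Mtm1 was bright in ES cells too, while Igdcc3 and Tox2 were not.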

How the data were processed

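RNA of 2 cell populations was compared on 1 Affymetrix mouse array each, out of 4 arrays. The deposited values are linear intensities per probe set. GCRMA is named by the submitters' processing notes, with no version. Each array's mean over probe sets, trimmed by 2% at each end, was 500.0, which is not the form of a GCRMA log2 summary, so the step that made the intensities is uncertain. The granule array had 9518 genes detected and the Sox1 array 9376, with median signals of 90.7 and 79.5.

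Of 45101 probe sets, 34945 had 1 gene symbol in the platform annotation, 932 had several, 9160 had none and 64 were controls. Signals were then converted to log2 without a pseudocount, with the low level (6.30, averaged from the median log2 signal of each of the 4 arrays) as a floor. Sizes alone are given, since 1 array per group allows no test. The number of arrays limits precision. The 56 gene lists (1367 of 1493 genes measured), the pairs and the members were chosen with earlier results of these data known, and list genes without a measured symbol were not analysed here. Named genes are the 12 largest differences in each direction, overall and among genes detected on both arrays, up to 6 called members per list and direction, the brightest members of a list, the pairs and the cell type markers. Other genes were chosen after their values were seen. Promoters and spans were taken from RefSeq tables of GRCm38.p6. The motif shares of all genes called higher and lower are not given, because 78.2% and 77.4% had a promoter entry. Python 3.11.15, numpy 2.4.6, pandas 2.3.3 and matplotlib 3.10.9 were used. Alternatives changed the low level, the detection and size rules, the scaling, the choice of probe set and the pseudocount.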

Additional observations from a re-analysis of the deposited data

How the results depend on the processing

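The counts of genes higher and lower on the granule array, 665 and 380, depended mainly on the size rule and the centring. They were 249 and 123 at 8-fold and 1854 and 1589 at 2-fold. Centring on reference genes gave 1208 and 207. Centring without Hprt, an alternative chosen after the data were seen, gave 1130 and 222. Averaging all probe sets of each gene gave 436 higher genes and 257 lower ones. Of the 665 genes, 581 were still called higher after quantile normalisation, and 379 of the 380 lower. A stricter or absent detection rule could not change the calls by construction. The median of the ribosomal protein list became 0.01 after centring on reference genes, and the difference of Dnmt3a became 0.48 with the brightest probe set over the 2 arrays; the cause of the former is the shift itself and that of the latter the choice of probe set. Of the other values of single genes under the alternatives, 3042 stayed within the spread among probe sets and 653 moved beyond it. No paired analysis was possible because each group has 1 array and the labels carry no replicate numbers. Over the alternatives that kept the 4-fold rule, the members called higher ranged from 14 to 20 in the granule lineage list, 10 to 16 in the nuclear factor I list and 11 to 17 in the astrocyte list, and those called lower from 4 to 7 in the anterior Hox list and 6 to 10 among stem cell RNA regulators. Signals near the low level limit the folds: 225 higher and 137 lower genes have only a bound.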

Other observations

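The following genes were chosen singly after their values were seen, and no list that holds them was counted. The transcriptional coactivator Yap1 was at 593.1 against 7288.8, and Ajuba and Trip6, LIM domain proteins, were at 184.5 against 3747.6 and 247.8 against 2570.8. The matricellular proteins Ccn1 and Ccn2 were at 786.4 against 5202.6 and 70.5 against 5310.4. On the ES array Yap1 was at 3730.6, Ccn1 at 868.9 and Ccn2 at 2186.6.

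The granule array carried both Xist, which is expressed from the inactive X chromosome, and genes of the Y chromosome. Xist was at 7315.4 against 178.2, in the same direction in all 3 of its probe sets. Kdm5d was at 799.5 against 167.7 and Eif2s3y at 1662.5 against 2782.2. The reference gene Hprt was at 3348.8 in granule cells, 93.0 in Sox1 cells and 90.3 in ES cells, by 1 probe set, and the cause was not tested.

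Probe sets outside the gene comparison were counted singly, while each gene was represented by its brightest probe set. Their shares are therefore not directly comparable with those of genes, of which 3.66% were higher and 2.09% lower. Of 9160 without a gene symbol, 216 (2.36%) were higher on the granule array and 60 (0.66%) lower, by the same rule. Of 932 with several symbols, 30 (3.22%) were higher and 17 (1.82%) lower.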
